A study of Drosophila melanogaster with 6 samples.

Results

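The tetraspanin family was examined in RPKM values of mRNA from leg disc myoblasts and from all cells of the leg disc of *Drosophila melanogaster*. Members were taken by name, as every gene whose symbol is Tsp followed directly by a digit, together with *lbm* (late bloomer). This gave 35 of the 17490 genes in the table. The gene written plainly as *Tsp*, which encodes thrombospondin and not a tetraspanin, was left out by this rule. Values of 3 libraries of GFP+ myoblasts sorted at 0 h after pupae formation (APF) were set against 3 libraries of the input, a sample of whole leg disc cells of the same age. Both groups carried the same genotype, R32D05-lexA>lexAopGFP, in which the R32D05 enhancer fragment drives the foreign activator lexA and lexA in turn switches on GFP, and both went through dissociation in collagenase and papain. GFP therefore marks those cells in which R32D05 is active, and the input holds the myoblasts as well as the epithelium, so that each fold change sets myoblasts against a mixture that contains them. Nothing in the sources used here says that the 3 replicates of a group came from separate cultures of flies, and p-values measure the spread between these libraries.

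Tetraspanins are small proteins that cross the membrane 4 times and expose a short and a long extracellular loop, the long one with a conserved cysteine motif. They bind one another and partners such as integrins and metalloproteases, gather them into membrane domains, and travel through endosomes into secreted vesicles. In flies many of the genes lie side by side in a cluster at cytological position 42E, and genetic roles are known for only some of them, among which are synapse formation for *lbm*, smooth septate junctions of the gut for *Tsp2A*, turnover of rhodopsin in the eye for *Tsp42Ej*, and trafficking of the Notch protease Kuzbanian for *Tsp3A*, *Tsp26A* and *Tsp86D*.

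RPKM is a read number corrected for gene length and library size. Reads recovered from the values (by multiplying with exon length) summed to between 60011335 and 77704084 per myoblast library and between 45603725 and 60920335 per input library. The label of the sorted cells was checked on 6 myoblast genes, *twi*, *htl*, *zfh1*, *Him*, *Mef2* and *stumps*, and all 6 were higher in myoblasts, with a median log2 fold change of 2.50. Of 11 disc epithelium markers, 9 were lower in myoblasts, where their median level was 1.61% of the input level. The summed RPKM of 8 neuronal markers ranged from 4.54 to 6.42 in myoblasts, against 38.9 to 171 in the input. The summed RPKM of 7 salivary gland markers was at most 1.81 in myoblasts and ranged from 1.66 to 406 in the input, with the highest value in input replicate 3. Of 5 glial, 3 hemocyte and 1 fat body markers tested, 3, 1 and 0 were called lower in myoblasts, and 1 glial marker, *wrapper*, was called higher. Over all tested genes 14.8% were called lower and 5.52% higher. Input replicate 1 stood apart from the other inputs (Pearson correlation of log2 values across tested genes 0.875 and 0.915, against 0.954 for input replicates 2 and 3, with the caveat that genes do not vary independently). Calls of tetraspanin genes that change without it are given with and without it. The partner and marker lists were not refitted without it.

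Of the 35 tetraspanin genes, 16 had 1 RPKM or more in 3 or more of the 6 libraries and were tested, 9 were listed above 0 in some library without reaching this level, and 10 were listed at 0 in all 6. The test was limma on log2(RPKM + 1), fitted over 7533 genes with Benjamini-Hochberg adjustment, and calls needed both an adjusted p under 0.05 and more than 1.5-fold difference. Among the 16 tested members, *lbm* was called higher in myoblasts, where 5.52% of all tested genes were. *Tsp42Ea*, *Tsp66E*, *Tsp74F*, *Tsp39D*, *Tsp42Ej*, *Tsp42Ek* and *Tsp97E*, 7 of the 16, were called lower, where 14.8% of all tested genes were. *Tsp74F* and *Tsp42Ek* met the limit for testing through the input libraries alone and had to differ in this direction. The remaining 8 members were not called. Without input replicate 1, 2 members were called higher (*lbm* and *Tsp42Ee*) and 8 lower (*Tsp26A* in addition). In that fit 871 of all 7533 tested genes were called higher and 1471 lower. The median log2 fold change of the 16 members was -0.37, beside 0.01 over all tested genes. In all, 8 of the 16 were called in either direction, beside 20.4% of all tested genes. The libraries of the groups did not overlap in 11 of the 16 members, where this held for 37.8% of all tested genes. Myoblasts lay above in 3 of them (16.4% of all tested genes) and below in 8 (21.5% of all tested genes). For every such gene an exact permutation test over 20 arrangements gives p = 0.1, the smallest that 3 libraries against 3 allow.

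**Figure D1:**
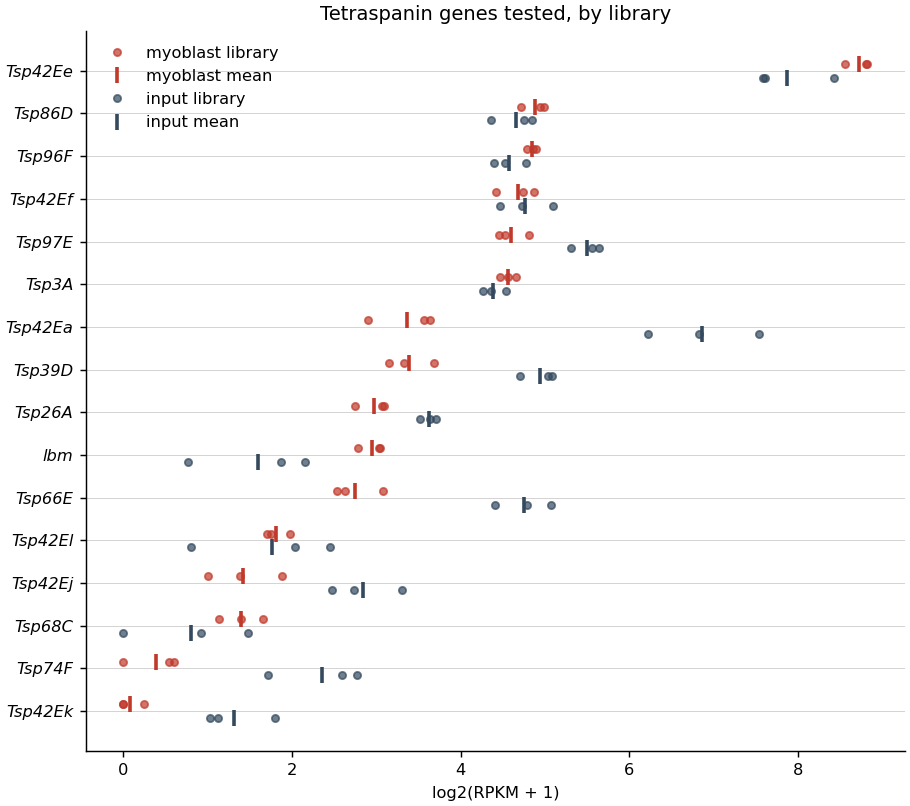
RPKM of the 16 tested tetraspanin genes on a log2(RPKM + 1) axis. Each dot is a library, vertical bars are the means of the log2 values, and each gene has its 3 myoblast libraries (red) drawn above its 3 input libraries (dark blue). *Tsp42Ee* stands far to the right in both groups, and the largest gap between groups is that of *Tsp42Ea*.

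*Tsp42Ee* was the most abundant tetraspanin in each of the 6 libraries. It belongs to the 42E cluster (chromosome 2R of dm6, 7012254 to 7018362) and is one of the fly tetraspanins most often compared with mammalian CD63, a protein of late endosomes and secreted vesicles. Replicates 1, 2 and 3 had 445, 376 and 452 RPKM in myoblasts, against 344, 191 and 194 RPKM in the input. All myoblast libraries lay above all inputs, and input replicate 1 stood between the myoblasts and the other inputs. The means were 424 ± 42.2 in myoblasts and 243 ± 87.5 in the input (SD, n = 3 each), which placed the gene 160th of 17490 by mean RPKM in myoblasts and 273rd in the input. The log2 fold change of 0.85 (standard error 0.27, 95% interval 0.24 to 1.47) missed the threshold, with an adjusted p of 0.059 from limma. Without input replicate 1 it was 1.13 with an adjusted p of 0.000485, and the gene was then called higher. It was also called after rescaling libraries to 1 common sum and after quantile normalization (adjusted p = 0.00526 and 0.00184, limma).

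With 1 added to each RPKM *Tsp42Ea* had the largest log2 fold change of the 16. With 0.1 added *Tsp74F* was slightly further from 0 (-3.67, against -3.61 for *Tsp42Ea*), and by the ratio of means the scarce genes *Tsp42Ek* and *Tsp74F* were 25.1-fold and 13.3-fold lower in myoblasts. *Tsp42Ea* opens the same cluster (chromosome 2R of dm6, 6992676 to 7004259). It had 6.49, 10.8 and 11.5 RPKM in the myoblast libraries, against 185, 73.4 and 113 RPKM in the inputs. The highest myoblast library was thus well under the lowest input, although the inputs differed among themselves by more than the myoblasts. Its mean was 9.60 ± 2.72 in myoblasts and 124 ± 56.4 in the input (SD, n = 3 each), which is 12.9-fold lower in myoblasts. On the log2 scale with 1 added the fold change was -3.49 (standard error 0.36, 95% interval -4.31 to -2.67, adjusted p = 0.000291 from limma). By mean level *Tsp42Ea* was the seventh tetraspanin in myoblasts and the second in the input. Its exons share 97 bases with *CG30159* on the same strand, whose RPKM of 25.3 to 38.0 over the 6 libraries could add at most 1.82 RPKM to *Tsp42Ea* in a library if its reads are spread evenly.

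Within a library the ratio of *Tsp42Ee* to *Tsp42Ea* does not depend on any single factor by which the library is scaled, though quantile normalization can change it. It was 68.7, 34.7 and 39.3 in myoblasts, against 1.86, 2.60 and 1.72 in the input. The groups were far apart. This ratio was chosen after the values of both genes had been seen and has no test.

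The summed RPKM of all 35 members was 623, 541 and 627 in myoblasts, against 744, 497 and 541 in the input. The groups overlapped, and the log2 ratio of the mean sums was 0.01. The RPKM of all genes summed to 963726 in input replicate 1, against 481720 and 589908 in input replicates 2 and 3. As a share of all RPKM the family took 0.0931%, 0.0924% and 0.0963% in myoblasts, against 0.0772%, 0.103% and 0.0918% in the input. Input replicate 1 was thus the highest library by sum and the lowest by share. What differed between the groups was the make-up of the family sum. *Tsp42Ee* accounted for 71.5%, 69.4% and 72.0% of it in myoblasts, against 46.3%, 38.3% and 35.9% in the input. *Tsp42Ea* accounted for 1.04%, 2.0% and 1.83% in myoblasts, against 24.8%, 14.8% and 20.8% in the input. Without these genes the sum of the other 33 members was 171, 155 and 164 RPKM in myoblasts, against 215, 233 and 235 RPKM in the input, and it was below every input in each myoblast library. These sums have no test, since the members were chosen with results known.

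**Figure D2:**
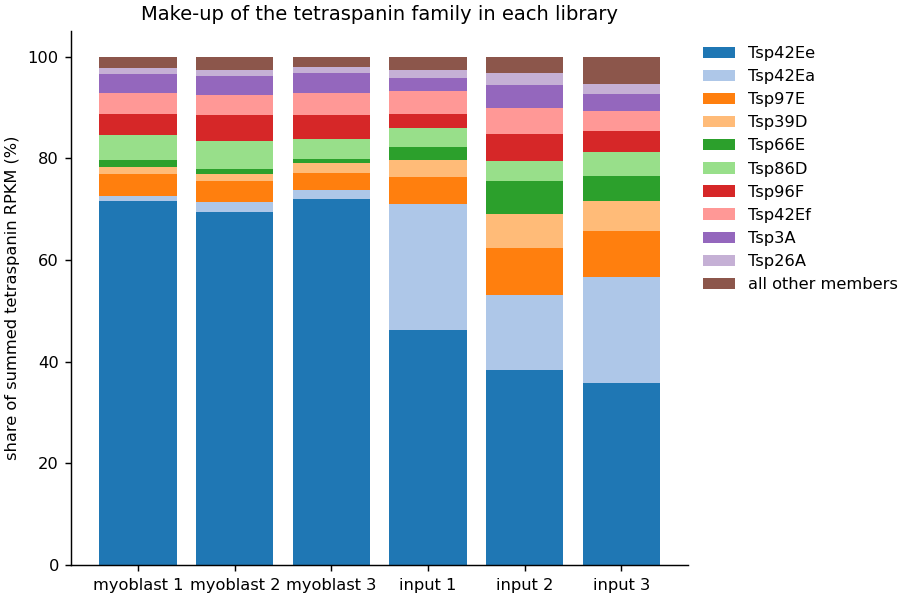
Share of the summed tetraspanin RPKM taken by each gene, in percent, in the 3 myoblast libraries (left) and the 3 input libraries (right). *Tsp42Ee* takes 69.4% to 72.0% of the sum in myoblasts and 35.9% to 46.3% in the input, and *Tsp42Ea* is a thin band in myoblasts and the second widest in each input.

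The 42E cluster holds 18 of the 35 members, *lbm* included, within 73.4 kb of chromosome 2R, together with 9 other annotated genes. Of the 18, 7 were tested and 6 were listed at 0 in all libraries. Levels changed sharply between neighbours. *Tsp42Ed*, which starts within a few kilobases of *Tsp42Ee* and runs on the opposite strand, had at most 0.662 RPKM in a library. *Tsp42Eb*, nested in an intron of *Tsp42Ea*, was listed above 0 in input replicate 3 alone, at 0.802 RPKM. *Tsp42Ef*, downstream of *Tsp42Ee*, had 25.7, 20.5 and 28.4 RPKM in myoblasts, against 33.1, 25.5 and 21.1 in the input. These ranges overlapped, and the log2 fold change was -0.08 (95% interval -0.62 to 0.46, adjusted p = 0.862 from limma), with its sign positive without myoblast replicate 2 or without input replicate 1. Further along, *Tsp42Eg* and *Tsp42Eh* were listed at 0 throughout.

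**Figure D3:**
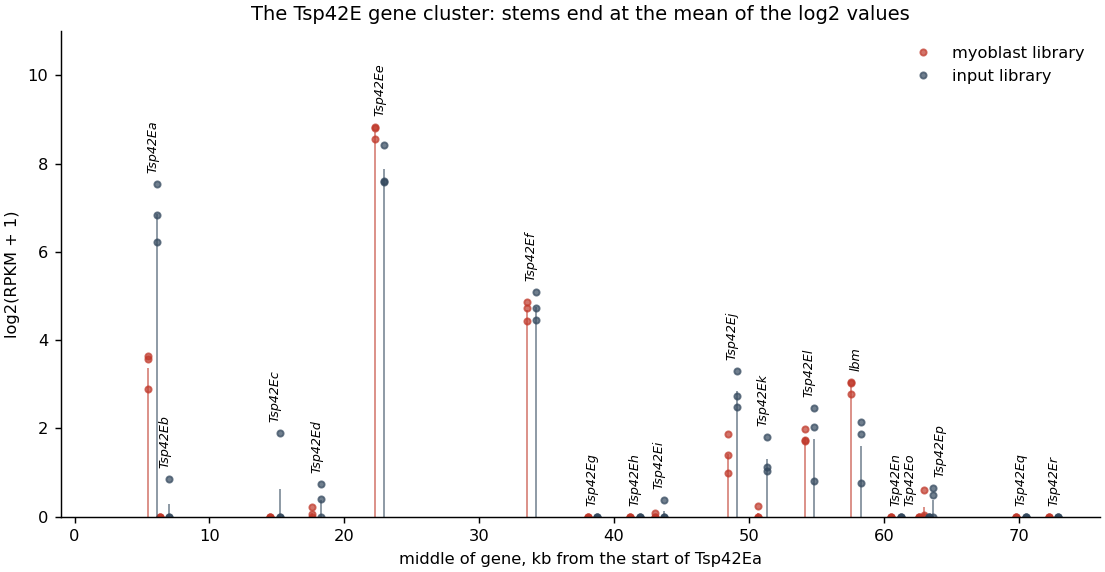
The 18 genes of the 42E cluster by the middle of each gene, in kb from the start of *Tsp42Ea*, against log2(RPKM + 1). Dots are libraries (3 myoblast in red, left of each pair, and 3 input in dark blue) and stems end at the mean of the log2 values. *Tsp42Ea* is far higher in the input, *Tsp42Ee* is high in both groups, and *lbm* is higher in myoblasts.

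The distal part of the cluster holds *lbm*, called higher, and *Tsp42Ej* and *Tsp42Ek*, called lower. *Tsp42Ea*, also called lower, lies at the other end. *lbm* (chromosome 2R of dm6, 7049238 to 7051964) is known from embryonic motor axons, where it aids the formation of synapses on muscle. It had 7.17, 7.26 and 5.89 RPKM in myoblasts, against 3.45, 0.708 and 2.65 in the input. Each myoblast library was above each input. The mean was 6.77 ± 0.77 in myoblasts and 2.27 ± 1.41 in the input (SD, n = 3 each), a ratio of 2.99, and the log2 fold change was 1.36 (standard error 0.39, 95% interval 0.46 to 2.25, adjusted p = 0.0423 from limma). The call rests on few libraries. It was lost without any single library other than input replicate 1, where the log2 fold change ran from 0.94 to 1.49 and the adjusted p from 0.053 to 0.153, and with a pseudocount of 0.1 (adjusted p = 0.0702), after rescaling libraries to 1 common sum (0.0571) and without the filter on low values (0.246). Without input replicate 1 the log2 fold change was 1.63 (adjusted p = 0.00713, limma). Calls were also lost over all tested genes, where 416 were higher in myoblasts with all libraries. Without myoblast replicate 1, 2 or 3 these were 164, 139 and 144. They were 871, 437 and 259 without input replicate 1, 2 or 3. Of the 7 neuronal markers tested, 6 were called lower in myoblasts, and the other, *futsch*, was not called. *futsch* had 1.27, 1.54 and 1.55 RPKM in myoblasts, against 0.416, 1.03 and 1.45 RPKM in the input. Which cell types the *lbm* reads came from was not tested.

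*Tsp42Ej*, named sunglasses for its part in breaking down rhodopsin in photoreceptors, lies upstream of *lbm*. Its RPKM was 1.0, 2.68 and 1.62 in myoblasts, against 5.64, 4.58 and 8.87 in the input. The groups did not overlap, and limma gave a log2 fold change of -1.42 with a standard error of 0.35 (adjusted p = 0.0231). Leaving out myoblast replicate 1, myoblast replicate 3 or input replicate 3 ended the call (adjusted p = 0.110, 0.0925 and 0.0819), as did rescaling to 1 common sum, quantile normalization or no filter (0.0921, 0.207 and 0.182). Its neighbour *Tsp42Ek* had 0.188 RPKM in myoblast replicate 1 and was listed at 0 in the other myoblasts, against 1.04, 1.18 and 2.48 RPKM in the input. Its fitted difference was -1.24 on the log2 scale (standard error 0.34; adjusted p = 0.0359, limma), and the call was lost without any 1 myoblast library or without input replicate 3 (adjusted p = 0.0832 to 0.150), and under the same 3 changes of scaling or filter (0.0764, 0.171 and 0.0674). Its size depended on the pseudocount and the scaling, at -3.45 with 0.1 added and -0.72 after quantile normalization, which also brought *Tsp42Ej* to -0.69. The exons of both genes share 107 bases on the same strand. If reads of *Tsp42Ej* are spread evenly, they could account for as much as 0.502, 0.408 and 0.789 RPKM of *Tsp42Ek* in input replicates 1, 2 and 3. *Tsp42El*, between these genes and *lbm*, had 2.36, 2.27 and 2.94 RPKM in myoblasts, against 3.11, 0.748 and 4.49 in the input. The inputs spanned the whole range of the myoblasts, and the log2 fold change of 0.04 (95% interval -0.97 to 1.05, adjusted p = 0.961 from limma) turned negative without input replicate 2 (-0.44) or myoblast replicate 3.

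Outside the cluster 17 members lie scattered over the X chromosome, both arms of chromosome 2 and both arms of chromosome 3, and 9 of these were tested. Of these, 4 were called lower in myoblasts, beside 14.8% of all tested genes, and the other 5 were not called. *Tsp66E* (chromosome 3L of dm6, 8912499 to 8932065) had 7.44, 5.17 and 4.80 RPKM in myoblasts, against 20.3, 32.7 and 26.6 in the input. *Tsp39D* (chromosome 2L, 21344607 to 21358271) had 9.04, 7.88 and 11.8 RPKM in myoblasts, against 24.98, 33.0 and 31.7 in the input. In both genes every input lay well above every myoblast library.

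For *Tsp66E* limma gave -2.01 ± 0.27 as the log2 fold change and its standard error (adjusted p = 0.00116), and for *Tsp39D* it gave -1.55 ± 0.23 (adjusted p = 0.00216). *Tsp66E*, *Tsp39D* and *Tsp42Ea* kept their calls in all 14 alternative analyses, among which median-of-ratios scaling could hardly change them. *Tsp74F* (chromosome 3L, 17891820 to 17895862) was much scarcer. It had 0.461 and 0.523 RPKM in myoblast replicates 1 and 2 and was listed at 0 in replicate 3, against 2.29, 5.81 and 5.03 RPKM in the input. In limma it was lower by a log2 fold change of -1.97 with a standard error of 0.38 (adjusted p = 0.00752), and the call was lost with quantile normalization (adjusted p = 0.0714) and with no filter on low values (adjusted p = 0.0976). It was -3.67 with 0.1 added and -1.23 after quantile normalization.

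*Tsp97E* (chromosome 3R, 26961064 to 26964817) was the most abundant of the 4 in both groups and differed least. RPKM was 27.0, 22.0 and 20.9 in myoblasts, against 38.5, 46.0 and 48.9 in the input. Its groups did not overlap, and limma gave a log2 fold change of -0.91 with a standard error of 0.20 (adjusted p = 0.0134). Leaving out myoblast replicate 2, myoblast replicate 3 or input replicate 3 ended the call (adjusted p = 0.0772, 0.0763 and 0.0610). So did rescaling libraries to 1 common sum (adjusted p = 0.148).

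The members called lower were not lower to the same degree. Mean myoblast RPKM was 3.99% of mean input RPKM for *Tsp42Ek*, 7.50% for *Tsp74F* and 7.77% for *Tsp42Ea*, and was 21.9% for *Tsp66E*, 27.7% for *Tsp42Ej*, 32.0% for *Tsp39D* and 52.4% for *Tsp97E*. For the 11 disc epithelium markers the median was 1.61%, as given above, and the 2 that were not called, *shg* (E-cadherin) and *baz*, averaged 63.4 and 7.21 RPKM in myoblasts, against 42.4 and 9.29 RPKM in the input. Of the tracheal and neuronal markers tested, 4 of 5 and 6 of 7 were also called lower in myoblasts, beside 14.8% of all tested genes. The other tracheal marker, *btl*, was not called. It had 1.76, 1.47 and 2.11 RPKM in myoblasts, against 0.334, 1.71 and 0.0372 RPKM in the input. Which of these cell types the input held, and the part of each in the lower tetraspanin values, was not tested. In bulk samples such as these, fewer cells of a type that expresses a gene and less RNA of the gene in each cell cannot be told apart.

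**Figure D4:**
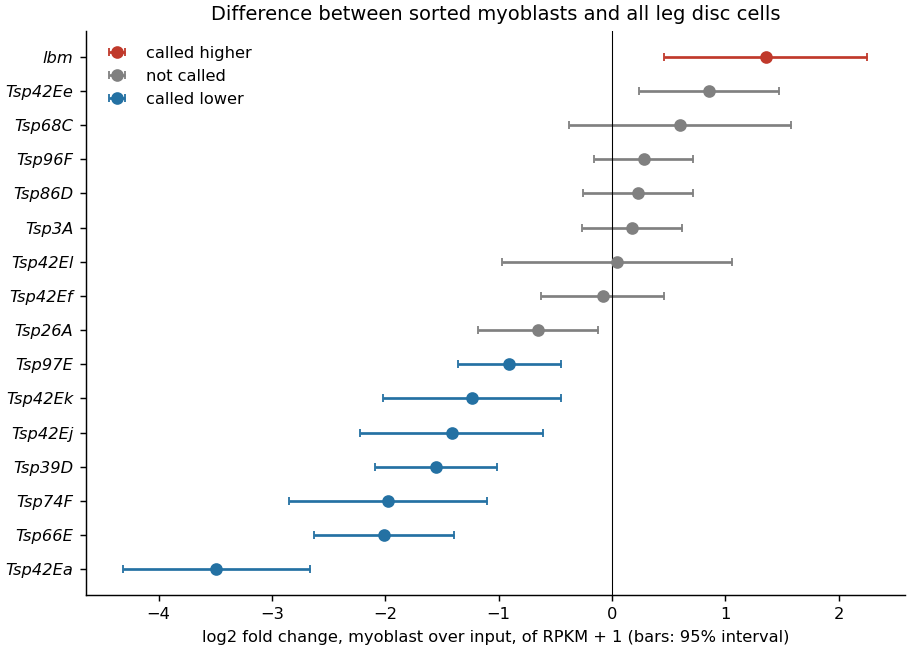
Log2 fold change, myoblast over input, of RPKM + 1 for the 16 tested members, with 95% intervals from limma. Red marks *lbm*, called higher, blue the 7 members called lower and grey the 8 not called, of which *Tsp42Ee* and *Tsp26A* have intervals that leave out 0.

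*Tsp3A*, *Tsp26A* and *Tsp86D* form the TspanC8 group, tetraspanins with 8 cysteines in the long loop, which bring the metalloprotease Kuzbanian to the cell surface, where it cuts Notch. *Tsp86D* had 30.7, 29.8 and 25.2 RPKM in myoblasts, against 27.8, 19.5 and 26.0 in the input. *Tsp3A* had 22.6, 21.0 and 24.2 RPKM in myoblasts, against 19.5, 22.3 and 18.2 in the input. Both overlapped between groups, and their log2 fold changes of 0.23 and 0.17 had 95% intervals from -0.26 to 0.71 and from -0.27 to 0.61, so that changes of these sizes cannot be told from none here. *Tsp26A* was the scarcest of the 3. It had 7.51, 5.71 and 7.39 RPKM in myoblasts, against 11.4, 12.05 and 10.5 in the input, without overlap. Its log2 fold change of -0.65 (95% interval -1.18 to -0.13) was not called, with an adjusted p of 0.0868 from limma, and was called without input replicate 1 (-0.65, adjusted p = 0.0457).

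The sum of the 3 genes was 60.8, 56.5 and 56.8 RPKM in myoblasts, against 58.7, 53.8 and 54.7 in the input, and these ranges overlapped. Within that sum *Tsp26A* took 12.4%, 10.1% and 13.0% in myoblasts, against 19.4%, 22.4% and 19.2% in the input. This share was computed after the values had been seen and has no test. *Gal*, on the opposite strand, shares 165 exon bases with *Tsp26A* and was listed at 0 to 0.626 RPKM in myoblasts, against 2.39 to 14.2 RPKM in the input. If the reads of *Gal* are spread evenly, they could add at most 0.776 RPKM to *Tsp26A* in input replicate 1 and less in the other libraries.

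A list of 10 genes covered Notch, its ligands, Kuzbanian with its relatives, and gamma-secretase. All 10 were tested, 4 were called lower in myoblasts and none higher. Over all tested genes these shares were 14.8% and 5.52%. *kuz*, which encodes Kuzbanian, had 28.5, 36.7 and 30.5 RPKM in myoblasts, against 13.6, 23.8 and 24.1 in the input. The groups did not overlap, but the log2 fold change of 0.65 was not called (unadjusted p = 0.0384, adjusted p = 0.136, limma). Its relatives *Kul* and *Tace* averaged 0.413 and 0.225 RPKM in myoblasts, against 11.5 and 10.7 RPKM in the input, and both were called lower. *N*, the Notch receptor, averaged 47.1 ± 9.79 RPKM in myoblasts and 35.1 ± 10.4 RPKM in the input (SD, n = 3 each) and was not called (adjusted p = 0.338, limma). Its ligands *Dl* and *Ser* were both called lower, with log2 fold changes of -1.14 and -1.99. The 4 subunits of gamma-secretase, *Psn*, *nct*, *pen-2* and *aph-1*, were not called.

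**Figure D5:**
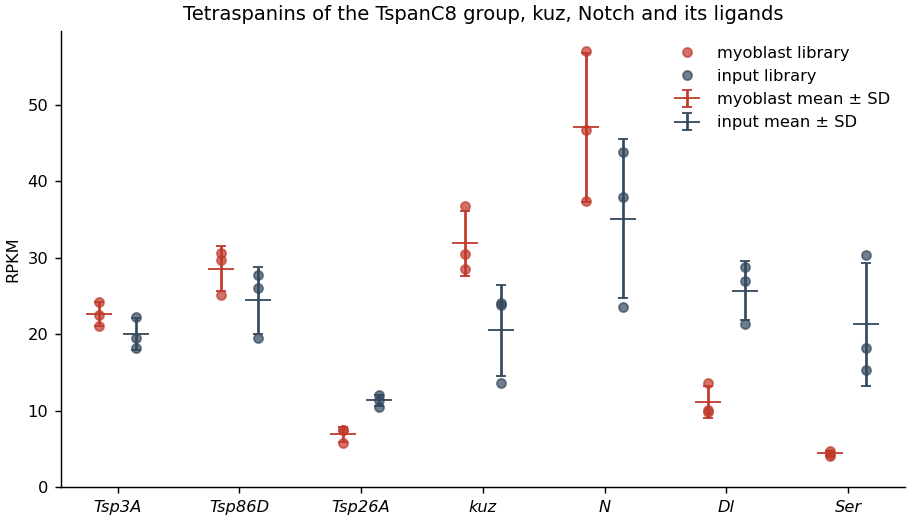
RPKM of the 3 TspanC8 tetraspanins, of *kuz*, of the receptor *N* and of its ligands *Dl* and *Ser*. Dots are libraries, with 3 myoblast libraries (red) left of 3 input libraries (dark blue), and bars give the mean ± SD. *Tsp3A* and *Tsp86D* overlap between groups, and *Tsp26A*, *Dl* and *Ser* are lower in every myoblast library than in any input.

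*Tsp96F* had 26.6, 28.0 and 28.8 RPKM in myoblasts, against 20.1, 26.4 and 22.1 in the input. The lowest myoblast library lay only just above the highest input. Its difference was 0.28 on the log2 scale (95% interval -0.16 to 0.72, adjusted p = 0.385 from limma). *Tsp68C* had 2.16, 1.21 and 1.64 RPKM in myoblasts. In the input it was listed at 0 in replicate 1 and at 0.889 and 1.79 RPKM in replicates 2 and 3. Its log2 fold change of 0.60 had a wide 95% interval, from -0.38 to 1.58 (adjusted p = 0.401, limma), and it was called higher only after quantile normalization (1.47, adjusted p = 0.0175). Without input replicate 1 it was 0.20, and with a pseudocount of 0.1 it was 1.59.

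By mean RPKM in myoblasts the order was *Tsp42Ee*, *Tsp86D*, *Tsp96F*, *Tsp42Ef*, *Tsp97E*, *Tsp3A*, *Tsp42Ea*, *Tsp39D*, *Tsp26A*, *lbm*, *Tsp66E*, *Tsp42El*, *Tsp42Ej*, *Tsp68C*, *Tsp74F* and *Tsp42Ek*. *Tsp42Ee* stood alone, and the next 5 genes averaged between 22.6 and 28.5 RPKM, each overlapping its neighbour in this order. *Tsp42Ea* overlapped *Tsp39D*, *Tsp26A* overlapped *lbm* and *lbm* overlapped *Tsp66E*, and a narrow gap lay between the lowest library of *Tsp39D* (7.88 RPKM) and the highest of *Tsp26A* (7.51 RPKM). In the input *Tsp42Ea* came after *Tsp42Ee*, followed by *Tsp97E*, *Tsp39D*, *Tsp42Ef* and *Tsp66E*, and *lbm* was fourteenth.

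The 19 members that were not tested include *Tsp2A*, which builds smooth septate junctions together with Mesh and Snakeskin. It had at most 0.783 RPKM in a library, and *mesh*, *Ssk* and *hoka*, which encode proteins of the same junction, also stayed below the limit for testing, although *Ssk* reached 2.17 RPKM in myoblast replicate 3. *Tsp5D* reached 1.11 and 1.07 RPKM in input replicates 2 and 3, and *Tsp42Ec* reached 2.73 RPKM in input replicate 1 and was listed at 0 in the other libraries. That value of *Tsp42Ec* corresponds to 116 reads, and *Tsp29Fa* (0.231 RPKM), *Tsp29Fb* (0.420 RPKM) and *Tsp42Eb* likewise had their only reads, 27, 35 and 47, in a single library. Reads carry no molecular identifiers, so such counts are not independent molecules and a value in 1 library has no replicate. *Tsp42Ed*, *Tsp42Ei* and *Tsp42Ep* had at most 0.662, 0.294 and 0.559 RPKM. Listed at 0 in all libraries were *Tsp33B*, *Tsp42A*, *Tsp42Eg*, *Tsp42Eh*, *Tsp42En*, *Tsp42Eo*, *Tsp42Eq*, *Tsp42Er*, *Tsp47F* and *Tsp66A*. The exons of *Tsp66A* and *Tsp42Eo* lie wholly within those of other annotated genes, and how reads there were assigned is not given in the sources used here.

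A further 3 lists describe the proteins that tetraspanins work with. Of 12 genes of endosomes and secreted vesicles, 11 were matched and tested and none was called (limma with Benjamini-Hochberg adjustment), beside 20.4% of all tested genes. Their median log2 fold change was -0.13, and 1 of the 11, *Stam*, had an unadjusted p under 0.05 (0.0174). Of 7 integrin genes 5 were tested and 1 was called higher, beside 5.52% of all tested genes. *scb*, an integrin alpha chain, was called higher, at 87.9 ± 11.4 RPKM in myoblasts and 29.9 ± 4.56 RPKM in the input (SD, n = 3 each), a log2 fold change of 1.53 (adjusted p = 0.000996, limma), and the other 4 were not called. Of 12 septate junction genes 9 were tested and 7 were called lower, beside 14.8% of all tested genes. Their log2 fold changes were -5.13 for *vari*, -3.05 for *sinu*, -2.20 for *kune*, -1.90 for *Nrx-IV*, -1.89 for *Lac*, -1.67 for *Cont* and -1.52 for *Mcr*. *cora*, a cytoplasmic component of the same junction, averaged 28.0 RPKM in myoblasts and 30.8 RPKM in the input and was not called. The other gene tested and not called, *nrv2*, averaged 80.3 RPKM in myoblasts and 58.7 RPKM in the input. Every myoblast library of *nrv2* was above every input (log2 fold change 0.44, adjusted p = 0.122 from limma).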

How the data were processed

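Poly(A) RNA of sorted myoblasts and of input cells was sequenced in 6 libraries, 3 per group. The authors trimmed reads with cutadapt, aligned them to dm6 with HISAT2 2.1.0, counted them with HTSeq 0.11.2 and deposited RPKM values (the submitters' processing notes also name DESeq2 1.22.2). Whether counting used strand is not given in the sources used here. Deposited RPKM values multiplied by exon length were whole multiples of a constant per library in 97.4% to 98.6% of genes under 100 reads, within a tolerance of 0.05 reads. The median ratio to the geometric mean over 6955 genes was 1.02 in each library, so the values already carried a common scaling of that kind.

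Log2(RPKM + 1) was tested with limma 3.58.1 (R 4.3.3, empirical Bayes with trend) on 7533 genes with RPKM of at least 1 in at least 3 libraries. In simulated data on 7533 genes, recovery was 72.2% for genes given a log2 change of 2. It was 16.5% for genes given a log2 change of 1. The simulation changed a far smaller share of genes than the 20.4% called in the data. Adjusted p-values depend on that share, so these rates may not hold for the real comparison. Every tested member was named with its values, members below the limit with their highest RPKM, and partner genes where called (at most 4 a list, exceeded for the septate junction list so that none of its calls was left out). *kuz*, *N*, the gamma-secretase genes, *cora*, *nrv2*, *Ssk*, *Stam*, *shg*, *baz*, *futsch*, *btl* and *wrapper* were named after their values had been seen. The members and gene lists were chosen with earlier results of these data known. Gene positions and exon overlaps are from the Ensembl annotation of dm6, matched by gene identifier. Alternatives changed the pseudocount, the filter, the scaling, the trend and the replicate block, and left out each library.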

Additional observations from a re-analysis of the deposited data

How the results depend on the processing

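Over the 16 tested members and 14 alternatives, 180 of 218 log2 fold changes kept their direction and their side of the threshold. *Tsp42Ea*, *Tsp39D* and *Tsp66E* were called lower in every alternative. The number of members called higher in myoblasts, 1 in the report, was 0 when 0.1 was added in place of 1, when low genes were not filtered, and when testing kept only genes of mean RPKM over 5 (10 members), and it was 3 with quantile normalization (*lbm*, *Tsp42Ee* and *Tsp68C*). It ranged from 0 to 2 when 1 library was left out. The number called lower, 7 in the report, was 4 without the filter, with mean RPKM over 5, after rescaling libraries to 1 common sum and after quantile normalization. It ranged from 4 to 8 when 1 library was left out, with 8 without input replicate 1. With mean RPKM over 5, *lbm*, *Tsp42Ej*, *Tsp42Ek* and *Tsp74F* were not tested. There *Tsp42Ea*, *Tsp39D*, *Tsp66E* and *Tsp97E* kept their calls, so that no member tested lost one. Under quantile normalization the median over all tested genes was 0.16 (log2). Without input replicate 1, 871 genes were called higher and 1471 lower in myoblasts, against 416 and 1118 with all libraries. Leaving out myoblast replicate 1, 2 or 3 gave 164, 139 and 144 higher and 787, 779 and 759 lower. Leaving out input replicate 2 or 3 gave 437 and 259 higher and 1109 and 884 lower. Without the filter the calls were 219 and 675, with mean RPKM over 5 they were 313 and 607, and with libraries rescaled to the same sum 180 and 924. With quantile normalization they were 809 and 900. The log2 fold change of *Tsp42Ef* ranged from -0.23 to 0.08 when 1 library was left out, turning positive (0.04) without myoblast replicate 2 and (0.082) without input replicate 1. That of *Tsp42El* ranged from -0.44 to 0.39, turning negative without myoblast replicate 3 (-0.04) and without input replicate 2 (-0.44). The log2 ratio of the summed family RPKM ranged from -0.11 to 0.20 when 1 library was left out. The causes of these changes were not tested. Median-of-ratios scaling changed none of the member calls. It could hardly do so, since the median ratio was 1.02 in each library and all values were divided by the same constant. Its results are nevertheless counted among the 180 that were kept.

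Whether replicate numbers pair the samples cannot be decided from 3 libraries a group, and the main fit used no pairing. The deviations of same-numbered libraries correlated at 0.345, 0.262 and 0.00685 for replicates 1, 2 and 3. Myoblast replicates 1 and 2 each correlated best with the input of the same number. Myoblast replicate 3 had small values with all inputs (-0.0361, 0.0421 and 0.00685 with input replicates 1, 2 and 3). With a replicate block 2 members were called higher (*lbm* and *Tsp42Ee*) and 6 lower, the call of *Tsp42Ek* being lost, beside 491 and 1177 of all 7533 tested genes.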
